A study of Homo sapiens with 6 samples.

Results

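The genes that build and steer the contractile actin cytoskeleton were followed in MDA-MB231 cells after knockdown of Ror1. The set holds 39 genes, given by symbol: actins, the heavy and light chains of non-muscle myosin II, tropomyosins, transgelins and calponins, filament cross-linkers, factors of filament assembly and capping, the kinases ROCK1, ROCK2, LIMK1 and LIMK2, focal adhesion plaque proteins and the linkers of actin to the membrane. Each symbol matched 1 identifier, so the set makes up 39 of the 57445 genes of the deposited table. The choice of the genes used no measured value of the comparison, but it was made with earlier results of these data known.

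MDA-MB231 is an established line of triple-negative breast cancer cells, spelled MDA-MB-231 in the sample labels. It was transduced with a pGIPZ lentiviral vector that carries either a control shRNA (shCTL) or an shRNA against ROR1 (shRor1), at a multiplicity of infection of 5.0, and was kept under selection with puromycin at 2 µg/ml. The labels also call the control an empty vector, and the header of the control columns alone holds the word DMSO, an agent that neither the labels nor the shRor1 header mention, so that a solvent on the control side cannot be told apart from the shRNA. Each condition was sequenced as 3 libraries of stranded single reads of 50 bases, and nothing in the labels says that the 3 came from separate transductions. P-values below therefore measure the spread between libraries, which may be technical. The columns carry no replicate number, and libraries are named the first, the second and the third by their order within a condition.

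Actin filaments slide past bipolar filaments of non-muscle myosin II, which pulls when its regulatory light chains are phosphorylated. Tropomyosins, calponins and transgelins lie along the filaments, alpha-actinins and filamin tie them together, and talin and vinculin couple them to integrins at focal adhesions. In invasive breast cancer cells this machinery drives the protrusion and contraction of cell migration, and the non-canonical Wnt branch to which Ror1 belongs is linked to invasion, which is the question that the comparison addresses.

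ROR1, the targeted gene, was measured at 15.4, 13.5 and 20.6 TPM in the shCTL libraries and at 9.34, 11.9 and 14.9 TPM in the shRor1 libraries. The third shRor1 library lay above the second shCTL library, so the conditions overlapped. The log2 fold change was -0.43 (SE 0.20), with an adjusted p of 0.984 by limma and p = 0.2 in the exact two-sided permutation test. It was -0.26 without the third shCTL library, -0.27 without the first shRor1 library and -0.58 without the third shRor1 library. For the protein, the paper shows the knockdown by a Western blot of Ror1, and it reports lower RhoA levels and JNK phosphorylation. These RNA values do not measure protein. TPM, a unit of transcript abundance, scales each gene for its length and each library to the same total, so levels of different genes can be compared but the depth of a library is lost. As a check of the line, VIM, which encodes the mesenchymal filament protein vimentin, lay between 2399 and 2920 TPM, while ESR1, the estrogen receptor, stayed between 0.10 and 0.21 TPM and PGR, the progesterone receptor, at or below 0.01 TPM. The keratins KRT8 and KRT18, which luminal cells make in quantity, were present, at 404 to 595 TPM and at 457 to 502.9 TPM. Between 16036 and 17033 genes reached 1 TPM per library, the most in the third shRor1 library.

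The sequence was considered first, because reads of 50 bases can be shared by the near-identical genes of this set. In the coding sequence the cytoplasmic actins ACTB and ACTG1 were identical at 1029 of 1128 aligned bases (91.2%), with a longest identical run of 59 bases. MYL12A and MYL12B, neighbours on chromosome 18, which encode nearly the same regulatory light chain, were identical at 494 of 516 bases (95.7%), with a longest identical run of 77 bases. The first 60 coding bases of the actins are shown to let the reader see how a read tells them apart, with the 10 bases that differ in capitals. The ACTB stretch lies on chromosome 7 from 5569229 to 5569288, and the ACTG1 stretch on chromosome 17 from 79479321 to 79479380, both on the minus strand of GRCh37.
ACTB: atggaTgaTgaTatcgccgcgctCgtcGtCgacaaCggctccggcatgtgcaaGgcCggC
ACTG1: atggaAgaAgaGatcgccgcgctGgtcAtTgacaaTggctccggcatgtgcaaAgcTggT

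For the light chains the most alike 75 coding bases inside 1 exon are shown, with capitals reserved for differences, of which there were 0. They lie on chromosome 18, plus strand of GRCh37, from 3255767 to 3255841 in MYL12A and from 3277786 to 3277860 in MYL12B. A read that falls within them cannot be assigned to either gene by its sequence.
MYL12A: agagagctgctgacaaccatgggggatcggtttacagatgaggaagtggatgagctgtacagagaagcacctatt
MYL12B: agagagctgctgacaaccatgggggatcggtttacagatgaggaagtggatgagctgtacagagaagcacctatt

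Windows of 50 bases were then slid along the canonical transcript of every member and searched in the transcripts of all other annotated genes. For 9 of the 39 members more than 10% of the windows occurred elsewhere, and 6 of them stayed above 10% when only the genes listed in the deposited table were searched. Among the partners were processed pseudogenes, intron-less copies of the mRNA. TPM4 shared 23.5% of its windows with TPM4P2 and TPM4P3. PFN1 shared 14.5%, all with PFN1P1. MYL12A shared 12.2% of its windows, 8.36% with MYL12B. ACTB shared 12.1%, of which 5.39% occurred in ACTBP2, while the windows that ACTB shared with any protein-coding gene, the POTE family among them, came to 4.54%. The largest shares belonged to ARPC1B (82.0%) and TAGLN (65.5%), but the genes they shared them with are not listed in the deposited table, and against the genes listed there both shares were 0%. Against the genes of the table, 25 of the 39 members shared less than 1% of their windows, 18 of them none, including all 4 plaque genes VCL, ZYX, TLN1 and PXN. Pseudogene rows of 22 members added at most 1.70% to the TPM of the member, except ROCK1, where ROCK1P1 amounted to 4.09%.

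**Figure D1:**
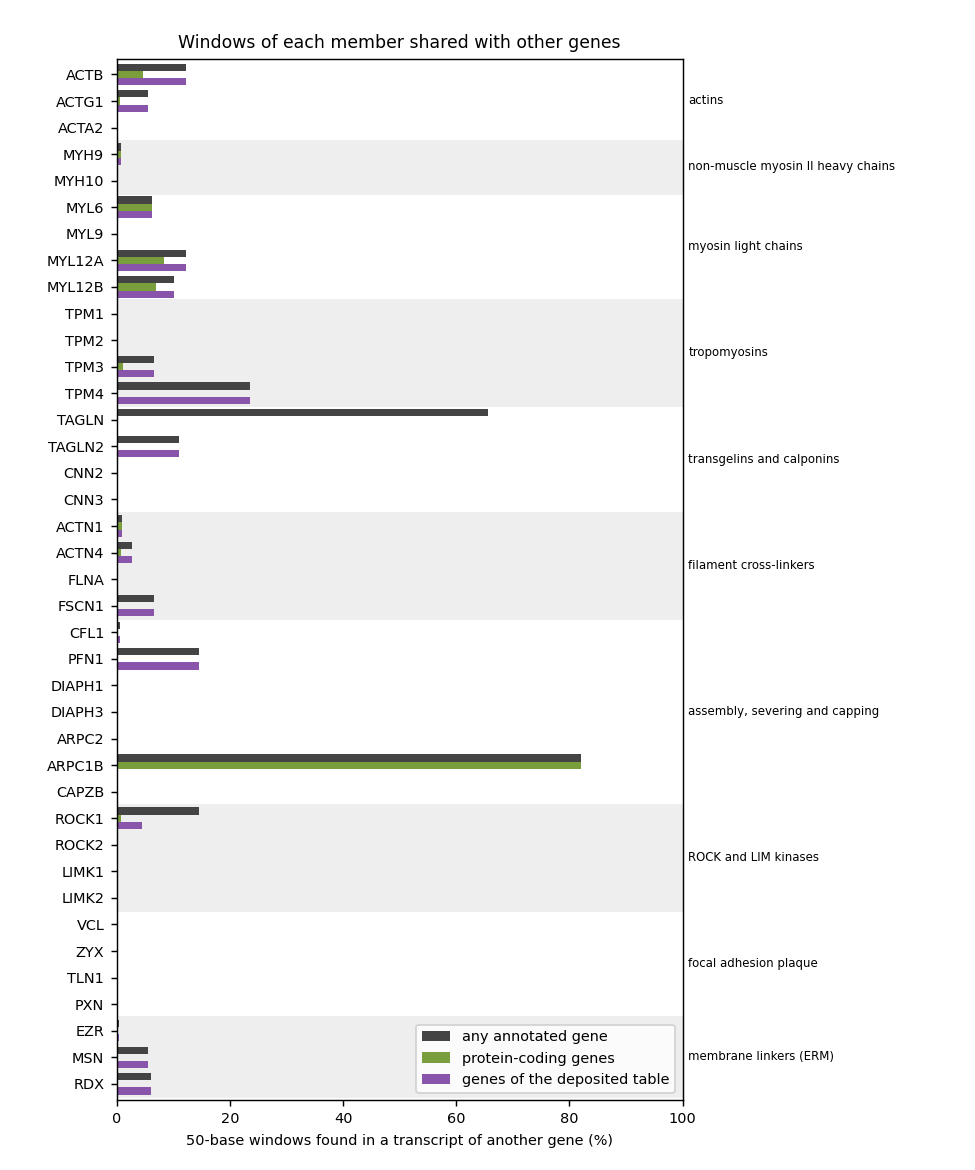
Share of the 50-base windows of each member's canonical transcript (in percent) that occur in a transcript of another gene, for any annotated gene (grey), protein-coding genes (green) and genes of the deposited table (purple). ARPC1B and TAGLN have long grey bars but no purple bar, TPM4 has the longest purple bar at 23.5%, and 18 members have none.

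The levels of the members spanned more than 2 orders of magnitude. On average over the libraries 5 members exceeded 1000 TPM, 20 lay between 100 and 1000 TPM, 12 between 10 and 100 TPM and 2 below 10 TPM. ACTB ranked 25 and ACTG1 37 among all genes of the table by mean TPM, and CFL1 ranked 89. Together the members took 1.66% to 1.81% of all TPM, a sum of 17488 ± 188 TPM in shCTL and 17196 ± 808 TPM in shRor1 (SD, n = 3). The first shRor1 library had the highest sum, 18110.2 TPM, and the other shRor1 libraries the lowest ones, 16901 and 16577 TPM. The difference of the means, -292 TPM, was -749 TPM without the first shRor1 library, -144 TPM without the second and 17.5 TPM without the third. All 39 members passed the filter of at least 1 TPM in at least 3 libraries.

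**Figure D2:**
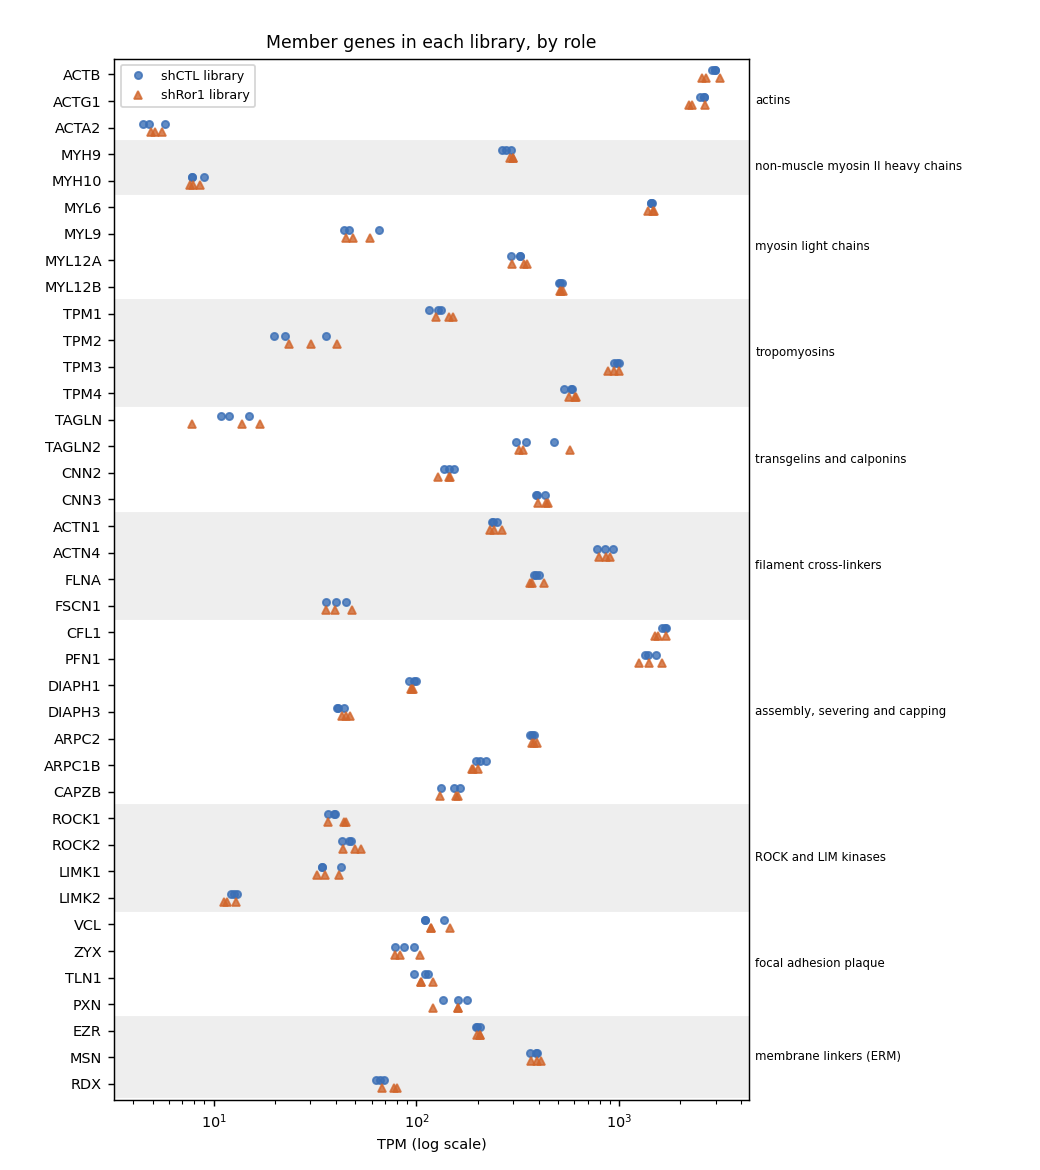
TPM of the 39 members in each library (log scale), by role, with shCTL libraries as circles and shRor1 libraries as triangles. Circles and triangles overlap in every row, from ACTB at the top to ACTA2 at the low end.

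In the limma fit over all genes, 0 of the 39 members passed an adjusted p of 0.05, against 0% of the 16554 genes tested. The study, with a different test that models read counts, called only AGR2 and a gene for an uncharacterized protein, neither a member. At an unadjusted p below 0.05, again 0 members were found in either direction, whereas 2.31% of all genes were higher and 0.544% lower in shRor1. The conditions did not separate completely for any member, and 0 members had every shRor1 library above or below every shCTL library, against 6.48% of all genes higher and 1.3% lower. Of the members 24 (61.5%) were fitted higher and 15 lower in shRor1, where 67.0% of all genes tested were fitted higher, with a median log2 fold change of 0.017, beside 0.054 over all genes tested. Fold changes ran from -0.12 for ACTG1 to 0.28 for TPM2, and adjusted p-values from 0.984 to 0.998 (limma). The direction of the list depended on the scaling, since 12 members were higher and 27 lower when the libraries were scaled by their median ratios, a step that brought the median of all genes to 0.00056.

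The 95% interval of the log2 fold change held 0 for all 39 members. It lay within ±0.5, a factor of 1.41, for 36 of them, and within ±0.25, a factor of 1.19, for 13. The wide intervals belonged to TPM2, TAGLN and TAGLN2. The spread between libraries of a condition was a median of 0.10 on the log2 scale over the members, beside 0.12 over the 9112 tested genes with a mean of at least 10 TPM. The median size of the fold change, regardless of sign, was 0.052 for the members and 0.071 for those genes. The sets were not matched in level, since 20 members lay between 100 and 1000 TPM and 5 above 1000 TPM. Over all genes tested, lower ones included, the medians were 0.15 for the spread and 0.091 for the fold change.

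**Figure D3:**
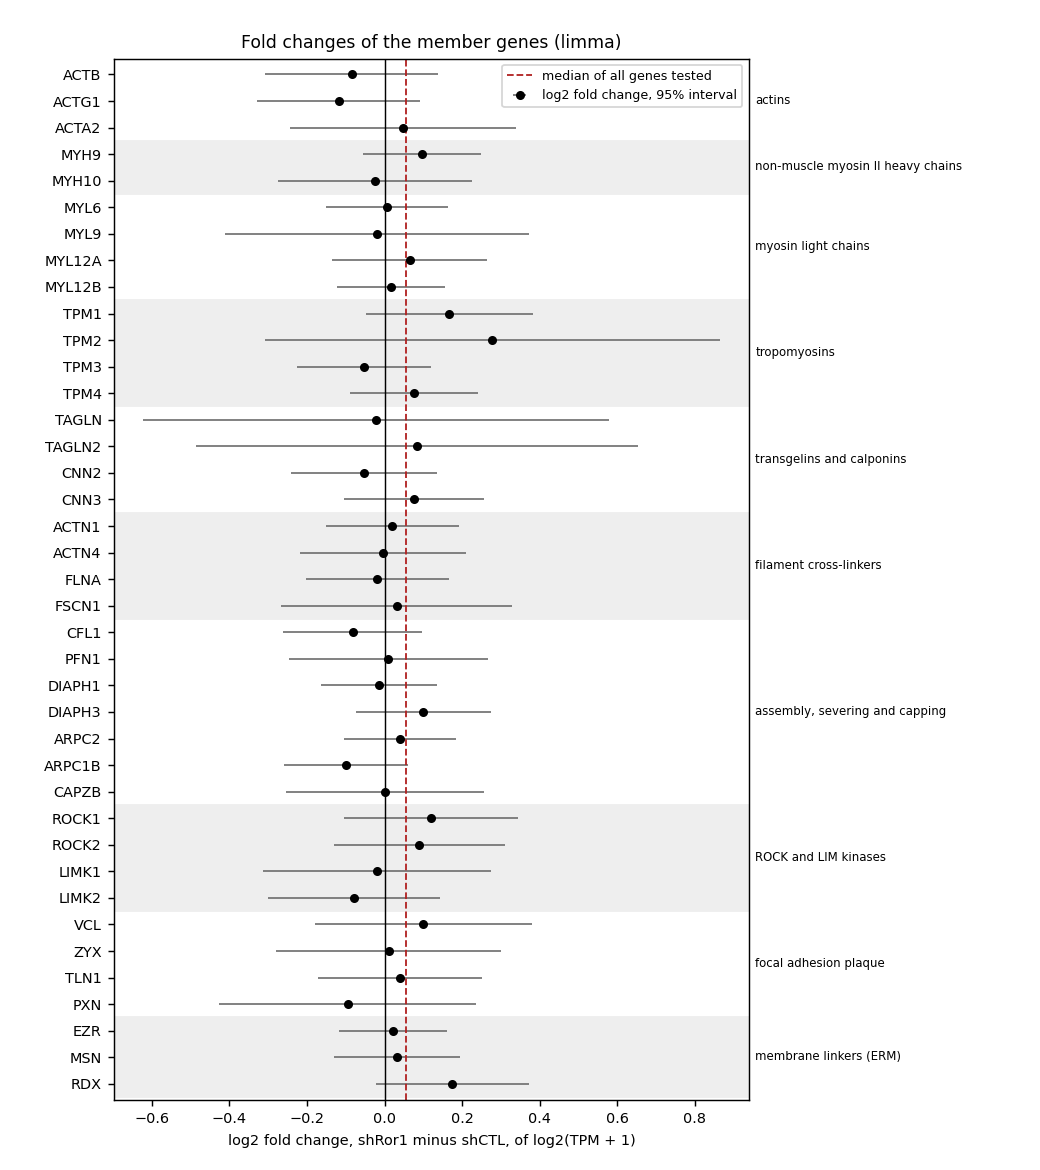
Log2 fold change of each member (shRor1 minus shCTL, on the log2(TPM + 1) scale, limma), with its 95% interval, by role. Every interval crosses 0, and the dashed line marks the median of all genes tested, 0.054.

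The actins form the filament itself. ACTB (ENSG00000075624.9, chromosome 7, 5566040 to 5603533, minus strand) encodes beta-actin. It lay at 2882, 2982 and 2978 TPM with shCTL and at 3139.7, 2679 and 2550.3 TPM in shRor1. The first shRor1 library was the highest of all and the other two were the lowest, so the shRor1 libraries enclosed the shCTL libraries. The means were 2947 ± 57 and 2789.5 ± 310.0 TPM (SD, n = 3), and the log2 fold change was -0.09 (SE 0.10, 95% interval -0.31 to 0.14).

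ACTG1 (ENSG00000184009.5, chromosome 17, 79476439 to 79490873, minus strand), which encodes gamma-actin, took 2500.3, 2609 and 2626 TPM in shCTL and 2649, 2216 and 2281 TPM in shRor1. It showed the same order of libraries as ACTB, the first shRor1 library on top and the others at the bottom, with means of 2578 ± 68 and 2382 ± 233 TPM and a log2 fold change of -0.12 (95% interval -0.33 to 0.09). The ratio of ACTG1 to ACTB was 0.875 ± 0.007 in shCTL and 0.855 ± 0.035 in shRor1 (SD, n = 3). Without the first shRor1 library both actins lay entirely below shCTL, as did 7.84% of all genes. The log2 fold change was then -0.17 for ACTB and -0.20 for ACTG1. Their unadjusted p-values in that limma fit were 0.0489 and 0.0289, and the adjusted ones 0.479 and 0.461. With any other library left out the log2 fold change lay between -0.10 and -0.02 for ACTB, nearest 0 without the third shRor1 library, and between -0.14 and -0.07 for ACTG1, nearest 0 without the second. ACTA2, the smooth muscle alpha-actin, was measured at only 5.00 ± 0.65 TPM in shCTL and 5.18 ± 0.33 TPM in shRor1.

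Other smooth muscle genes were compared with the low ACTA2. Of 11 smooth muscle and myofibroblast markers, 6 did not pass the filter. MYOCD, the coactivator that defines the smooth muscle program, was listed at 0 in all 6 libraries, and LMOD1, SYNPO2, ACTG2, FAP and POSTN stayed below 0.5 TPM. ACTG2 lay at 0.02 to 0.16 TPM in shCTL and at 0.27 to 0.48 TPM in shRor1, without overlap but near 0 and untested. With no filter 5.2% of all genes lay entirely higher in shRor1. Of the 5 tested, 2 were fitted higher and 3 lower. MYH11 lay at 0.98 to 1.58 TPM with a log2 fold change of 0.15, and DES, the muscle filament desmin, at 0.54 to 3.23 TPM with 0.23. CNN1 took 1.48 to 2.69 TPM with -0.13 and PDGFRB 1.66 to 3.18 TPM with -0.04. SMTN, smoothelin, was the exception in level, at 50.6 to 65.9 TPM with -0.04.

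The non-muscle myosin II heavy chains are the motor. MYH9 (chromosome 22, 36677326 to 36784055), which encodes the IIA chain, was read at 265, 277 and 291 TPM with shCTL and at 300.3, 301 and 290.3 TPM in shRor1. The 2 highest values were shRor1, but the third shCTL library lay just above the third shRor1 library. With means of 278 ± 13 and 297 ± 6 TPM, its log2 fold change was 0.10 (SE 0.07), with an exact p of 0.2. MYH10, the IIB chain, was far lower at 8.20 ± 0.66 and 8.04 ± 0.45 TPM, which gave a ratio of MYH9 to MYH10 of 34.0 ± 1.4 in shCTL and 37.1 ± 2.1 in shRor1 (SD, n = 3).

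The light chains stabilize and regulate the neck of the motor. MYL6, the essential light chain, had the smallest spread of the 5 members above 1000 TPM. It lay at 1443, 1427 and 1438 TPM with shCTL and at 1485, 1382 and 1465 TPM in shRor1, with means of 1436 ± 8 and 1444 ± 55 TPM and a log2 fold change of 0.0075. The only shRor1 library below shCTL was the second.

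MYL12A (chromosome 18, 3247479 to 3256234) was measured at 294, 323 and 325 TPM with shCTL and at 297, 337 and 352 TPM in shRor1. The first library was the low one in each condition, and the means were 314 ± 18 and 329 ± 29 TPM. MYL12B (chromosome 18, 3261477 to 3278459) took 519.6, 509 and 505 TPM in shCTL and 509, 525 and 518 TPM in shRor1, with means of 511 ± 8 and 517 ± 8 TPM and the smallest spread of all members. Summed with its near-identical copy, neither gene changed direction. MYL9, the regulatory chain typical of smooth muscle, was lower, with 52.0 ± 11.8 TPM in shCTL and 50.8 ± 7.6 TPM in shRor1, and was highest in the third library of each condition. The 4 light chains summed to 8.09 ± 0.32 times the 2 heavy chains in shCTL and 7.67 ± 0.32 times in shRor1 (SD, n = 3, exact p = 0.2).

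Tropomyosins coat the filament and set which myosins and severing factors reach it. TPM3 led with 1001.5, 946 and 975 TPM in shCTL and 999.9, 939 and 879.7 TPM in shRor1, with means of 974 ± 28 and 939.6 ± 60.1 TPM. TPM2 (chromosome 9, 35681989 to 35690053, minus strand) had the largest fold change of all members, yet also one of the widest spreads. Its values were 22.5, 19.8 and 35.6 TPM in shCTL and 30.2, 23.5 and 40.7 TPM in shRor1. The third library was the highest in each condition and the conditions overlapped, with means of 26.0 ± 8.5 and 31.5 ± 8.7 TPM, so that the log2 fold change of 0.28 (SE 0.25) had a 95% interval from -0.31 to 0.87. Without the third shCTL library TPM2 reached 0.52 at an unadjusted p of 0.0436 (limma), adjusted 0.842. In that fit 3.56% of all genes were higher and 0.444% lower at an unadjusted p below 0.05. The log2 fold change of TPM2 was 0.11 without the second shCTL library and 0.08 without the third shRor1 library. TPM1 rested at 125 ± 8 TPM in shCTL and 141 ± 14 TPM in shRor1, with a log2 fold change of 0.17 and an unadjusted p of 0.111 (limma), and TPM4 at 565 ± 28 and 596 ± 25 TPM. The ratio of TPM3 to TPM4 was 1.73 ± 0.10 in shCTL and 1.58 ± 0.05 in shRor1, with p = 0.2 in the exact permutation test.

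Transgelins and calponins bind along the filament and are classed with smooth muscle proteins, although TAGLN2, CNN2 and CNN3 are widely expressed. CNN3 had the highest mean of the group, with 389, 392 and 430.2 TPM in shCTL and 396, 446 and 437 TPM in shRor1, with means of 404 ± 23 and 426 ± 27 TPM. TAGLN2 (chromosome 1, 159887897 to 159895297, minus strand) lay at 309, 477 and 347 TPM with shCTL and at 319, 571 and 334 TPM in shRor1. The second library stood above the other two in each condition, and the remaining 4 libraries lay between 309 and 347 TPM. The means were 377 ± 88 and 408 ± 141 TPM. Its log2 fold change of 0.08 (SE 0.24) therefore had an interval from -0.49 to 0.65, and it became -0.18 without the second shRor1 library and 0.26 without the second shCTL library. TAGLN, the smooth muscle transgelin, was low at 12.6 ± 2.1 and 12.9 ± 4.7 TPM, and CNN2 was measured at 145 ± 8 and 139.6 ± 10.2 TPM.

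**Figure D4:**
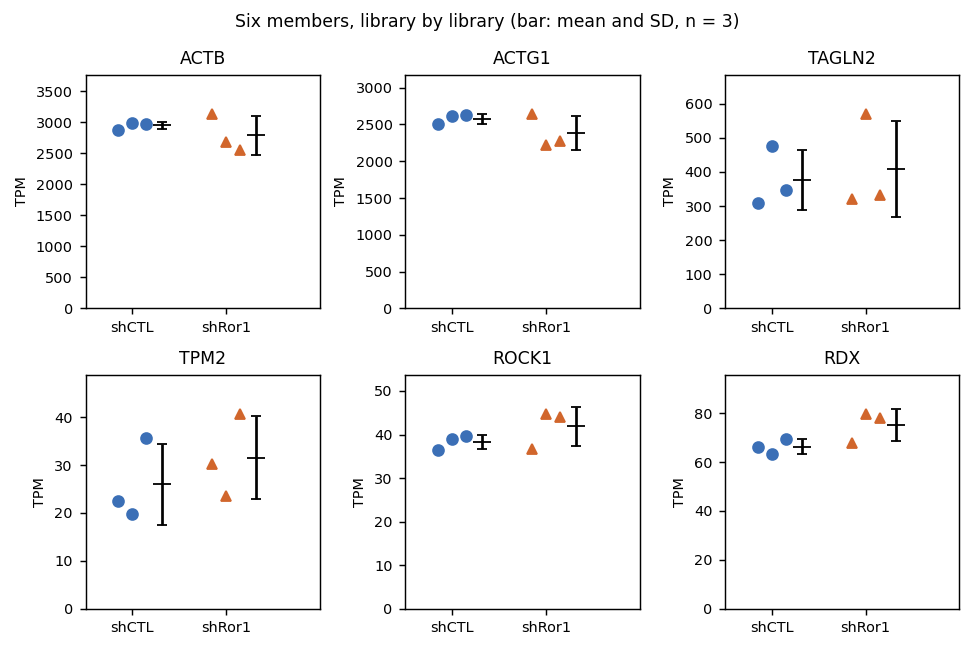
TPM of 6 members in each library, in column order within each condition, with the mean and SD (n = 3) as a bar beside the points. ACTB and ACTG1 are highest in the first shRor1 library and lowest in the other two, TAGLN2 is high in the second library of each condition, and TPM2 is high in the third.

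Cross-linkers bundle filaments or join them into networks. ACTN4, the more abundant alpha-actinin, took 774, 854 and 935 TPM in shCTL and 792, 858 and 902 TPM in shRor1. FSCN1, which packs the parallel bundles of filopodia, had 35.7, 40.1 and 44.8 TPM in shCTL and 35.9, 39.8 and 47.9 TPM in shRor1. Both showed nearly the same 3 values in each condition, with the first library low and the third library high, and log2 fold changes of -0.0042 and 0.03. Their means were 854 ± 80 and 851 ± 56 TPM for ACTN4 and 40.2 ± 4.6 and 41.2 ± 6.1 TPM for FSCN1. ACTN1 lay at 242 ± 8 and 245 ± 17 TPM and FLNA, filamin A, at 390.2 ± 9.5 and 386 ± 34 TPM.

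Assembly and turnover of filaments need monomer binding, nucleation, severing and capping. CFL1, cofilin, which severs filaments, was read at 1706, 1631 and 1689 TPM with shCTL and at 1706, 1546 and 1501 TPM in shRor1. Its order of libraries resembled that of the actins, with means of 1675 ± 39 and 1584 ± 108 TPM and a log2 fold change of -0.08. DIAPH3, a formin that elongates filaments, lay at 40.9, 40.6 and 43.8 TPM with shCTL and at 44.9, 46.8 and 42.9 TPM in shRor1, a log2 fold change of 0.10 (SE 0.07), and only the third shRor1 library fell below the third shCTL library. The means of DIAPH3 were 41.8 ± 1.7 and 44.8 ± 2.0 TPM. DIAPH1 was higher but flat at 95.9 ± 3.7 and 95 ± 0.9 TPM. The ratio of DIAPH1 to DIAPH3 was thus 2.30 ± 0.06 in shCTL and 2.12 ± 0.10 in shRor1, without overlap.

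PFN1, profilin, which hands monomers to the growing end, reached 1409 ± 91 and 1426 ± 193 TPM. Of the Arp2/3 complex, which starts branches, ARPC2 lay at 372 ± 8 and 382 ± 11 TPM and ARPC1B at 207 ± 11 and 193 ± 6 TPM. Their ratio was 1.80 ± 0.12 in shCTL and 1.98 ± 0.09 in shRor1, again without overlap. CAPZB, which caps the growing end, lay at 149 ± 16 TPM in either condition. Ratios were formed for 22 pairs or sums, and those of DIAPH1 to DIAPH3 and of ARPC2 to ARPC1B reached the smallest p that 3 against 3 libraries allow, 0.1 in the exact permutation test, or 0.8 after Benjamini-Hochberg adjustment over the 22.

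ROCK1 and ROCK2 encode kinases that lead to phosphorylation of the myosin light chains, and LIM kinases switch cofilin off. ROCK2 was measured at 42.8, 47.5 and 46.3 TPM with shCTL and at 43.3, 49.6 and 53.0 TPM in shRor1. ROCK1 (chromosome 18, 18524573 to 18691774, minus strand) lay at 36.5, 39.0 and 39.6 TPM with shCTL and at 36.7, 44.8 and 44.1 TPM in shRor1. For both kinases the first library of each condition was the low one and the other 2 shRor1 libraries exceeded all shCTL libraries. With means of 38.3 ± 1.7 and 41.9 ± 4.5 TPM for ROCK1 and of 45.5 ± 2.4 and 48.6 ± 4.9 TPM for ROCK2, the log2 fold changes were 0.12 (SE 0.10) and 0.09 (SE 0.09). LIMK1 lay at 36.9 ± 4.8 and 36.4 ± 4.7 TPM and LIMK2 at 12.6 ± 0.4 and 11.9 ± 0.8 TPM.

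In the focal adhesion plaque, PXN, the scaffold paxillin, had the highest mean, with 159.8, 134 and 178 TPM in shCTL and 161, 121 and 161 TPM in shRor1, and means of 157 ± 22 and 148 ± 23 TPM. VCL, vinculin, which reinforces the link of talin to actin under force, took 111, 110.2 and 136 TPM in shCTL and 118, 118 and 147 TPM in shRor1. The third library was the high one of VCL in each condition, the means were 119 ± 15 and 128 ± 16 TPM, and its log2 fold change was 0.10 (SE 0.12). ZYX, zyxin, was found at 87.5 ± 9.7 and 88.5 ± 13.2 TPM, and TLN1, talin, at 107 ± 9 and 111 ± 9 TPM.

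Ezrin, radixin and moesin link actin to the plasma membrane. MSN, moesin, dominated with 387, 365 and 391 TPM in shCTL and 409.6, 369 and 391 TPM in shRor1 (means 381 ± 14 and 389.8 ± 20.4 TPM), followed by EZR with 200.4 ± 4.0 and 203 ± 4 TPM. RDX, radixin (chromosome 11, 109735021 to 110167437, minus strand), had the smallest p-value of all members. It was read at 66.3, 63.3 and 69.4 TPM with shCTL and at 67.8, 79.7 and 77.9 TPM in shRor1. The second shRor1 library and the third exceeded all shCTL libraries, while the first lay among them. The means were 66.3 ± 3.1 and 75.1 ± 6.4 TPM. The log2 fold change was 0.18 (SE 0.09, 95% interval -0.02 to 0.37), with an unadjusted p of 0.0757 and an adjusted p of 0.984 (limma). Without the first shRor1 library it was 0.25 at an unadjusted p of 0.0142, adjusted 0.435.

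The libraries differed in how often they were the extreme of the 6. The first shRor1 library was the highest for 10 members and the lowest for 0, while over all tested genes it was highest in 14% and lowest in 13.3%. The second shRor1 library was the highest for 11 members and the lowest for 8, with 20.6% and 17.4% over all genes. Highest for 6 members and lowest for 8 was the third shRor1 library, against 35.1% and 12.9% of all genes. Without that library the median log2 fold change over all genes tested was 0.025, beside 0.054 with every library. The first shCTL library was the lowest for 11 members and the second shCTL library for 9, with 19.3% and 24.3% of all genes lowest there. Leaving out the first shRor1 library brought 5 members to an unadjusted p below 0.05, with ACTB and ACTG1 lower and TPM1, ROCK1 and RDX higher, where 7.73% of all genes were higher and 2.64% lower at that threshold. It likewise left 6 members entirely higher and 7 entirely lower, against 21.6% and 7.84% of all genes. The adjusted p of these 5 members lay between 0.435 and 0.479 (limma).

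**Figure D5:**
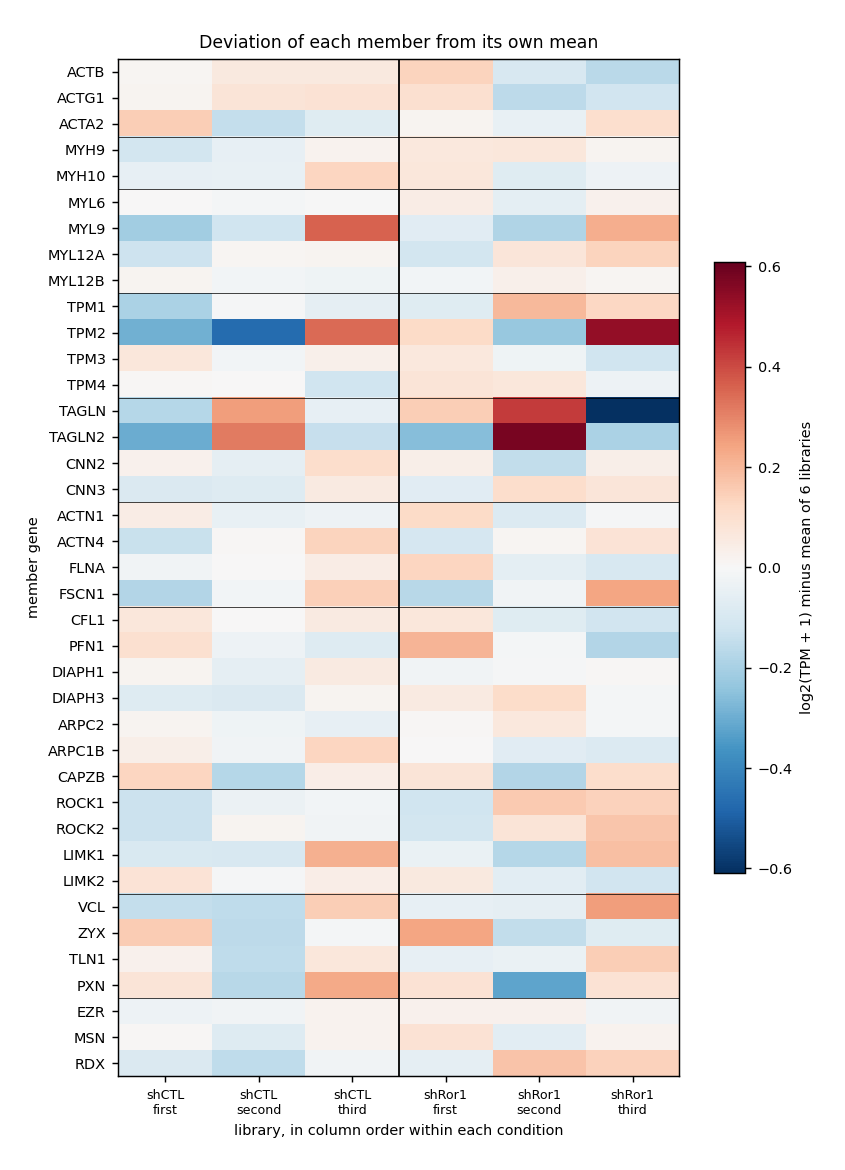
Deviation of each member from its own mean over the 6 libraries, on the log2(TPM + 1) scale (red above, blue below), with the libraries in column order and lines between roles. The strongest colours are those of TPM2, TAGLN and TAGLN2, and they follow single libraries more than the line between shCTL and shRor1.

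The rest of the pathway was read from 3 lists with 77 further genes, of which 74 were tested. At an adjusted p of 0.05, 0 of them were called, and at an unadjusted p below 0.05 there were 0 as well (limma). Of the 74 genes 48 were fitted higher and 26 lower, with a median log2 fold change of 0.036. Named after their values were seen, DIAPH2 and CRKL lay entirely higher and WASF3 entirely lower in shRor1. DIAPH2, a formin, rested at 5.83 ± 0.36 and 6.60 ± 0.21 TPM, CRKL, an adaptor of focal adhesions, at 38.7 ± 1.7 and 41.1 ± 1.0 TPM, and WASF3, an activator of Arp2/3, at 3.97 ± 0.13 and 3.59 ± 0.14 TPM. These 2 higher genes and 1 lower gene stood beside 6.48% of all genes higher and 1.3% lower without overlap.

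Among the 41 tested genes of actin assembly and turnover, 29 were fitted higher and 12 lower, beside the 67.0% of all genes fitted higher. GSN, gelsolin, which severs and caps, spread from 14.8 to 29.4 TPM in shCTL and from 16.2 to 45.6 TPM in shRor1, with a log2 fold change of 0.34 (SE 0.37). DSTN, destrin, a relative of cofilin, lay at 239.9, 285 and 259 TPM with shCTL and at 245, 402 and 312 TPM in shRor1, a log2 fold change of 0.27 (SE 0.17). In both genes the lowest shRor1 library was the first, and it overlapped with shCTL.

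Of 30 tested genes of focal adhesions and linkers, 18 were fitted higher and 12 lower. The largest fold changes were negative, with -0.32 (SE 0.22) for TNS1, tensin, and -0.23 (SE 0.18) for FLNC, filamin C. TNS1 took 15.2, 11.5 and 13.8 TPM in shCTL and 14.4, 7.47 and 10.8 TPM in shRor1, so that 2 of the 3 shRor1 libraries lay below shCTL. FLNC lay at 83.9, 71.3 and 83.5 TPM with shCTL and at 87.3, 52.0 and 67.9 TPM in shRor1, again with the first shRor1 library on top.

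Many genes of the contractile cytoskeleton are known targets of SRF, the serum response factor, which binds the CArG box with the MRTF coactivators. SRF itself was measured at 47.8, 46.8 and 43.9 TPM with shCTL and at 49.0, 40.4 and 37.5 TPM in shRor1, a log2 fold change of -0.13 (SE 0.11). As for the actins, the first shRor1 library was highest and the other 2 lowest. Within shCTL the first library was highest for SRF but lowest for ACTB and ACTG1. MRTFA lay at 6.52 to 7.87 and 7.0 to 8.16 TPM, a log2 fold change of 0.04 (SE 0.12).

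The promoters were searched for the CArG box by name on both strands, a palindromic motif of 10 bases that was counted once per place. RefSeq promoter sequences on GRCh38.p14, from 250 bases before to 50 bases after each start, were at hand for 34 of the 39 members with 57 starts. The other 5, ACTB, MYL9, TAGLN, FSCN1 and ARPC1B, had no entry and were not searched. Of those 57 promoters 6 held the box (10.5%), against 1.29% of all 35116 promoters and 1.15% of the promoters of tested genes. Counted by gene, it was 6 of 34 members (17.6%) and 1.60% of all genes. A TATA box with the letters TATAAA was found in 2 of the 57 promoters (3.51%), against 11.5% of all and 6.39% of those of tested genes, and the GC box GGGCGG in 43 (75.4%), against 45.0% of all and 65.4% of those of tested genes. The 6 boxes lay between 73 and 173 bases before their start, and they are printed with 10 bases on each side, 5′ to 3′ on the strand of the gene, with the box in capitals. They show which of the 34 members searched carry the SRF motif near a start, and how the 6 inner bases vary. ACTG1 lies at chr17:81512874-81512903 (minus), ACTN1 at chr14:68977718-68977747 (minus), CNN2 at chr19:1026509-1026538 (plus), FLNA at chrX:154374709-154374738 (minus), ROCK2 at chr2:11345491-11345520 (minus) and TPM4 at chr19:16067355-16067384 (plus).
ACTG1: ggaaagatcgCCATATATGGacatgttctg
ACTN1: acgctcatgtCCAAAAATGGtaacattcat
CNN2: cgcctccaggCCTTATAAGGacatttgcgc
FLNA: ggcaattttaCCAATTAAGGctttctcgcc
ROCK2: aaatgtacttCCTTAAATGGgtttactggg
TPM4: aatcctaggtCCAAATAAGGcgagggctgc

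The log2 fold changes of these 6 genes were -0.12 for ACTG1, 0.02 for ACTN1, -0.05 for CNN2, -0.02 for FLNA, 0.09 for ROCK2 and 0.08 for TPM4. They had no common sign, and 3 were positive and 3 negative. ACTN1 has 4 starts in the table, TPM4 has 3 and ROCK2 has 2, and only 1 start of each carried the box, whereas ACTG1, CNN2 and FLNA have 1 start. Since the reads were summed per gene, the use of these starts was not measured.

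As these were bulk libraries, a smaller share of cells with a gene switched on and less RNA per cell cannot be told apart. Markers fixed for other cell states were compared as well. Of 6 markers of the line, LGALS1 lay at 1431 ± 170 and 1531 ± 180 TPM and S100A4 at 2.42 to 7.97 and 2.01 to 12.7 TPM, and 0 passed an adjusted p of 0.05. Of 9 luminal markers 7 were tested and 0 passed. CDH1, E-cadherin, had 1.01, 0.80 and 1.22 TPM in shCTL and 1.36, 1.41 and 1.47 TPM in shRor1, without overlap, as 6.48% of all genes, and with a log2 fold change of 0.27 (SE 0.14, adjusted p = 0.984 by limma). FOXA1 took 3.72 to 4.74 and 4.42 to 5.45 TPM. The 7 luminal markers had no common sign, with 3 fitted higher and 4 lower, the latter GATA3 (-0.11), KRT8 (-0.10), KRT18 (-0.06) and EPCAM (-0.03). Their part in the values of the cytoskeletal genes was not tested.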

How the data were processed

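RNA of MDA-MB231 shCTL and shRor1 cells (3 libraries each) was sequenced with a stranded Illumina kit as single reads of 50 bases. Per the labels and the methods of the study, the authors used CASAVA 1.8.2, FastQC 0.10.0, STAR with GRCh37 and Ensembl 73, and RSEM 1.2.5. What the authors deposited under the name of expected counts are TPM values with 2 decimals, since each column adds up to about 1000000. The paper lists the mapped reads of each library, but no column can be tied to a single library, so no counting interval can be given. The number of unused sample columns was 0.

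A gene was kept if 3 or more libraries reached 1 TPM, and the 16554 genes kept of 57445 were fitted as log2(TPM + 1) with limma 3.58.1 in R 4.3.3 (condition only, mean-variance trend), and p-values were adjusted over all of them by the Benjamini-Hochberg method at 0.05. Fold changes on this scale understate those of low genes. Single values and ratios were tested by an exact two-sided permutation test, which cannot go below 0.1. The fit was tested on simulated data. Symbols matched 55022 identifiers. Coordinates and transcripts came from GENCODE 44 on GRCh37, promoters from RefSeq.

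The members, roles, lists and alternatives were chosen with earlier results of these data known. All members were named with their means. Values in every library were given for the member with the highest mean and the member with the largest fold change of each role. They were also given for the near-identical pairs, for the 2 largest fold changes of each further list, and for ROR1. Low genes and GSN were given as ranges instead, and LGALS1 by its means. CYFIP1 of the lists was not matched, and 1 further list is not reported here. The alternatives were a pseudocount of 0.1, quantile and median-ratio scaling, no filter, each library left out, and sums with pseudogenes or near-identical copies.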

Additional observations from a re-analysis of the deposited data

How the results depend on the processing

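The precision of all values is limited by 3 libraries per condition and by TPM without read counts. No paired analysis was possible because no column header holds a replicate number. Under every alternative 0 members passed an adjusted p of 0.05, with adjusted p-values from 0.435 to 1, and 16 of 39 members kept their direction throughout. A pseudocount of 0.1, no filter, pseudogene sums and pair sums turned no member, quantile normalization turned 5, median-ratio scaling 12, and leaving out 1 library 2 to 8. The members that turned had log2 fold changes between -0.096 (PXN) and 0.10 (VCL) with all libraries.

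Without any filter 1363 genes in place of 472 had an unadjusted p below 0.05. Non-overlapping members numbered 4 under quantile normalization (MYH9, TPM4 and ARPC2 higher, ARPC1B lower) and 2 under median-ratio scaling (DIAPH1 and ARPC1B lower), where 3.27% of all genes were higher and 3.2% lower without overlap under the former and 3.65% and 3.12% under the latter. Median-ratio scaling moved the median log2 fold change of the members from 0.017 to -0.044 and the difference of their summed TPM from -292 to -1005. More than 10% of the windows were shared by 9 members, by 1 with protein-coding genes only and by 6 with the genes of the table, the last an alternative chosen after seeing the data.

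Leaving out each library in turn, 0 to 1 genes were called (1 without the third shRor1 library), 275 to 1692 genes had an unadjusted p below 0.05, 0 to 5 members did so, and 1 to 13 members did not overlap, with the highest values of these 3 counts without the first shRor1 library. Over all genes the share without overlap then ran from 9.64% to 21.6% higher and from 2.55% to 7.84% lower. The median log2 fold change of the members ran from 0.0014 to 0.043 and the difference of their summed TPM from -749 to 17.5, changing sign without the third shRor1 library.

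Members that turned under quantile normalization were ACTA2 (-0.047), ACTN4 (0.033), FSCN1 (-0.0036), CAPZB (-0.010) and ZYX (-0.0029). Under median-ratio scaling they were ACTA2 (-0.0028), MYL6 (-0.053), MYL12B (-0.044), ACTN1 (-0.041), FSCN1 (-0.028), PFN1 (-0.051), ARPC2 (-0.021), CAPZB (-0.060), ZYX (-0.049), TLN1 (-0.020), EZR (-0.040) and MSN (-0.029).

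With 1 library left out, log2 fold changes ranged from -0.013 to 0.13 for ACTA2, from -0.065 to 0.033 for MYH10, from -0.013 to 0.039 for MYL6, from -0.13 to 0.16 for MYL9, from -0.24 to 0.28 for TAGLN, from -0.18 to 0.26 for TAGLN2, from -0.092 to 0.0095 for CNN2, from -0.033 to 0.066 for ACTN1, from -0.073 to 0.063 for ACTN4, from -0.089 to 0.026 for FLNA, from -0.079 to 0.12 for FSCN1, from -0.092 to 0.10 for PFN1, from -0.044 to 0.011 for DIAPH1, from -0.086 to 0.091 for CAPZB, from -0.12 to 0.084 for LIMK1, from -0.0036 to 0.20 for VCL, from -0.11 to 0.092 for ZYX, from -0.028 to 0.086 for TLN1, from -0.20 to 0.040 for PXN and from -0.0043 to 0.071 for MSN. Without a change of sign it ranged from -0.58 to -0.26 for ROR1, from -0.17 to -0.02 for ACTB, from -0.20 to -0.07 for ACTG1, from 0.08 to 0.52 for TPM2, from 0.11 to 0.25 for TPM1, from 0.07 to 0.21 for ROCK1 and from 0.13 to 0.25 for RDX. The cause of these changes was not tested.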
